A study of Mus musculus with 8 samples.

Results

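The globin and red cell genes of mouse lung RNA are described here across 4 groups of libraries. The members were chosen by symbol, as the adult globins Hba-a1, Hba-a2, Hbb-bs, Hbb-bt, Hbb-b1 and Hbb-b2 and the red cell genes Alas2, Slc4a1 and Bpgm. Of these 9 symbols, 8 had an entry among the 23469 genes of the count table, and Hbb-bt had none. All 8 passed the filter on low counts in each comparison. The choice used the higher globin counts of PBS-treated DDAH1-transgenic mice over PBS-treated wild type mice, so that this difference is given below as a description without a test.

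Lungs came from C57BL/6 wild type mice (WT) and from DDAH1-transgenic mice (TG), which overexpress an enzyme that breaks down the nitric oxide synthase inhibitor asymmetric dimethylarginine. House dust mite extract (HDM) was instilled into the trachea at 100 µg in 50 µl PBS, and control mice received 50 µl PBS, 3 times per week for 3 weeks, and lungs were examined 24 hours after the last challenge. In each of the 4 groups the RNA of 4 mice was pooled and run as 2 libraries, so that every SD, standard error and p-value below covers only technical spread and not the spread between mice. The promoter of the transgene and the age and sex of the mice were not given in the sources used here.

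Hemoglobin, the oxygen carrier of red cells, is built from pairs of alpha-globin and beta-globin chains, each holding a heme group. Red cells that leave the marrow as reticulocytes still carry RNA, most of it for globins, so that blood left in a lung adds globin RNA to a lung library. Alas2 makes the first and rate-limiting enzyme of heme synthesis in red cell precursors, Slc4a1 makes the band 3 anion exchanger of the red cell membrane, and Bpgm makes the enzyme that forms 2,3-bisphosphoglycerate, which lowers the oxygen affinity of hemoglobin. In whole lung, fewer cells of a type and less RNA per cell cannot be told apart.

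The 8 libraries held between 5694928 and 11929374 counts, and replicate 1 of HDM-treated TG mice was the smallest. Rn45S, the ribosomal RNA precursor, made up 8.58% and 9.37% of counts in the HDM-treated TG mice, 16.7% and 21.5% in the HDM-treated WT mice and 14.8% to 21.8% in the PBS-treated libraries. Levels are given as CPM, counts scaled to library size. Xist, the RNA of the silenced X chromosome, was 11.3 to 20.8 CPM after PBS but 2048 to 3040 CPM after HDM. Ddx3y, on the Y chromosome, was 58.7 to 69.0 CPM after PBS but 0.18 to 0.30 CPM after HDM, so that HDM and the sex markers cannot be told apart. The mouse Ddah1 gene stood at 47.7 and 34.3 CPM in PBS-treated WT mice, 43.1 and 44.7 in HDM-treated WT mice, 76.9 and 53.8 in PBS-treated TG mice, and 34.9 and 33.4 in HDM-treated TG mice. Whether this gene's counts include the transgene is not stated in the sources used here, and the libraries are named by their labels.

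Several of the globin genes share much of their sequence, so that many short reads fit more than a single gene. The sequences that show this are given first. Hba-a1 (chromosome 11, 32283672 to 32284486) and Hba-a2 (chromosome 11, 32296492 to 32297310, GRCm38) differed at 1 of 426 coding bases. Coding bases 351 to 411 of both genes hold that base, which is in capitals:
Hba-a1: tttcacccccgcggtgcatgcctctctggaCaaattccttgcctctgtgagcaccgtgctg
Hba-a2: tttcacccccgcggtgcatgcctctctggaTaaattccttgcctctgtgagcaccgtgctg
Hbb-bs (chromosome 7, 103826523 to 103827928) and Hbb-bt likewise differed at 1 of 441 coding bases, in capitals within coding bases 387 to 441:
Hbb-bs: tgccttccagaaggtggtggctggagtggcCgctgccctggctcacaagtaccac
Hbb-bt: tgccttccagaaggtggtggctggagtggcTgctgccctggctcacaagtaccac
Of all stretches of 50 bases, the length of 1 read, 67.5% in the Hba-a1 transcript also occurred in Hba-a2, and 65.8% of those in Hbb-bs also occurred in Hbb-bt. The remaining stretches did not occur in another gene. No stretch of Alas2, Slc4a1 or Bpgm occurred in another gene, and the sequences of Hbb-b1 and Hbb-b2 were not compared here. Hba-a1 and Hba-a2 had identical counts in all 8 libraries, as had Hbb-b1 and Hbb-b2, so that the 8 genes gave 6 distinct sets of counts. C57BL/6 mice carry the Hbb-bs and Hbb-bt pair of beta-globin genes, whereas Hbb-b1 and Hbb-b2 belong to the haplotype of other strains. The count of Hbb-b1 was nonetheless between 0.790 and 0.859 of that of Hbb-bs in every library. The 5 globin entries are therefore treated below as 1 measure of alpha-globin and 1 of beta-globin, and how the counting assigned reads that fit several genes is not stated in the sources used here.

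The promoters of the globins, Alas2 and Bpgm are shown because the levels of these genes are compared throughout, and that of Slc4a1 was not analysed here. Capitals mark GATAA and CACCC on either strand (TTATC and GGGTG on the other), the letters bound by GATA factors and by Klf1 in red cell precursors. Each line gives the 250 bases before the RefSeq start, on the strand of the gene. In GRCm38.p6 they lie at chr11:32283422-32283671 (plus strand) for Hba-a1, chr7:103827929-103828178 (minus strand) for Hbb-bs, chr7:103813924-103814173 (minus strand) for Hbb-bt, chrX:150547167-150547416 (plus strand) for Alas2 and chr6:34476106-34476355 (plus strand) for Bpgm:
Hba-a1: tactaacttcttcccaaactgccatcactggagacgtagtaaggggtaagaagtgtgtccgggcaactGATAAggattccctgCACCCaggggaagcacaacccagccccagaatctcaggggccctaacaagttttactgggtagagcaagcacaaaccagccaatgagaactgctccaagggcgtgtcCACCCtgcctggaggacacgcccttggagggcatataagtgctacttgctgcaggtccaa
Hbb-bs: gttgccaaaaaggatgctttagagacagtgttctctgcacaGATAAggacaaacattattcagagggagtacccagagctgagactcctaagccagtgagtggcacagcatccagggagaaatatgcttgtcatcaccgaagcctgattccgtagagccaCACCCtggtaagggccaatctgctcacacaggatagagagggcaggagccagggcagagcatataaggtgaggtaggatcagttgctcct
Hbb-bt: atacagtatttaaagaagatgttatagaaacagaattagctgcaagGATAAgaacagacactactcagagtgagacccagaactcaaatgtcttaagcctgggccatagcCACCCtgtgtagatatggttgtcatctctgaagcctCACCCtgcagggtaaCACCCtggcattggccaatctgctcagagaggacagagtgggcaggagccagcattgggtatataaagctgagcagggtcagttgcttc
Alas2: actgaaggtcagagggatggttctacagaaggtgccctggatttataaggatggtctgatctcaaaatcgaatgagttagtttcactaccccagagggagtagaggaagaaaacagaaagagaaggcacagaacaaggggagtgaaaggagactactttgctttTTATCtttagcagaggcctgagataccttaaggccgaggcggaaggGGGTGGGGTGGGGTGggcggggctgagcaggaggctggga
Bpgm: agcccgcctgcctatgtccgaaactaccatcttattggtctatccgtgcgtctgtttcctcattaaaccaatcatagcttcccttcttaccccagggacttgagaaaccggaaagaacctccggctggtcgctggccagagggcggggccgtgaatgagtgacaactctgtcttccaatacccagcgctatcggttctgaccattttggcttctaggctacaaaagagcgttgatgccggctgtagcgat
The Hba-a2 promoter shared an unbroken run of 247 of its 250 bases with that of Hba-a1 and is not repeated. Both alpha-globin promoters, both beta-globin promoters and that of Alas2 held each of the motifs at least once, and Bpgm held neither. Among 27025 mouse promoters of the same length, 23.0% held GATAA or its complement, 51.3% held CACCC or its complement and 2711 held both. A match describes these letters and is not evidence of a bound site.

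Alpha-globin was the most abundant of the members. Hba-a1 and Hba-a2, which make the alpha chains, each stood at 2517 and 3085 CPM in the libraries of PBS-treated WT mice, 1067 and 1374 in HDM-treated WT mice, 4341 and 4993 in PBS-treated TG mice, and 1104 and 1563 in HDM-treated TG mice. Both PBS-treated groups lay above both HDM-treated groups, and the HDM-treated groups overlapped. The group means fell in the order 4667 ± 461, 2801 ± 401, 1333 ± 324 and 1221 ± 217 CPM (SD, n = 2 libraries of 1 pool), with PBS-treated TG mice first and HDM-treated WT mice last, and the last 2 did not differ beyond their spread.

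Beta-globin followed the same order except that its HDM-treated groups were apart. Hbb-bs, which makes the beta chain, stood at 1197 and 1181 CPM in PBS-treated WT mice, 372 and 463 in HDM-treated WT mice, 1859 and 1804 in PBS-treated TG mice, and 669 and 1020 in HDM-treated TG mice. Hbb-b1 and Hbb-b2 each stood at 1028 and 993 CPM, 317 and 386 CPM, 1567 and 1508 CPM, and 528 and 835 CPM in the groups in that order. No 2 groups overlapped in either set of beta-globin counts. Of all genes tested, the libraries of 2 groups did not overlap for 40.3% between the PBS-treated groups, 49.7% between the WT groups and 56.9% between the TG groups. Per 1000 bases of transcript, Hba-a1 had 4007 CPM and Hbb-bs 1893 CPM in PBS-treated WT mice, against 1908 and 1345 CPM in HDM-treated TG mice. Per 1000 coding bases, the part in which reads were counted by the paper's description, they had 6575 and 2696 CPM against 3130 and 1915 CPM. Xist, an RNA without a coding region, had up to 31372 counts, so that not all counting was confined to coding bases. Since Hba-a1 and Hba-a2 have identical counts, these levels cannot be split between them.

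The red cell genes that are not globins were far less abundant. Alas2 stood at 23.5 and 24.4 CPM in PBS-treated WT mice, 6.79 and 16.4 in HDM-treated WT mice, 40.0 and 45.1 in PBS-treated TG mice, and 10.3 and 13.6 in HDM-treated TG mice. Its order of groups was that of alpha-globin, with the HDM-treated groups overlapping. Its 2 libraries of HDM-treated WT mice, at 76 and 163 counts, were the farthest apart.

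Slc4a1 had the same order of group means, with little room between its groups, and Bpgm did not. Slc4a1 stood at 5.12 and 5.55 CPM in PBS-treated WT mice, 2.41 and 2.31 in HDM-treated WT mice, 3.49 and 7.92 in PBS-treated TG mice, and 3.44 and 3.17 in HDM-treated TG mice. With 23 to 75 counts per library, the 2 libraries of PBS-treated TG mice spanned those of PBS-treated WT mice. Bpgm stood at 17.2 and 15.2 CPM, 8.22 and 7.23 CPM, 13.8 and 18.0 CPM, and 31.7 and 11.1 CPM in the groups in that order. Replicate 1 of HDM-treated TG mice was alone in its high Bpgm, and it is also the library with the fewest counts.

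**Figure D1:**
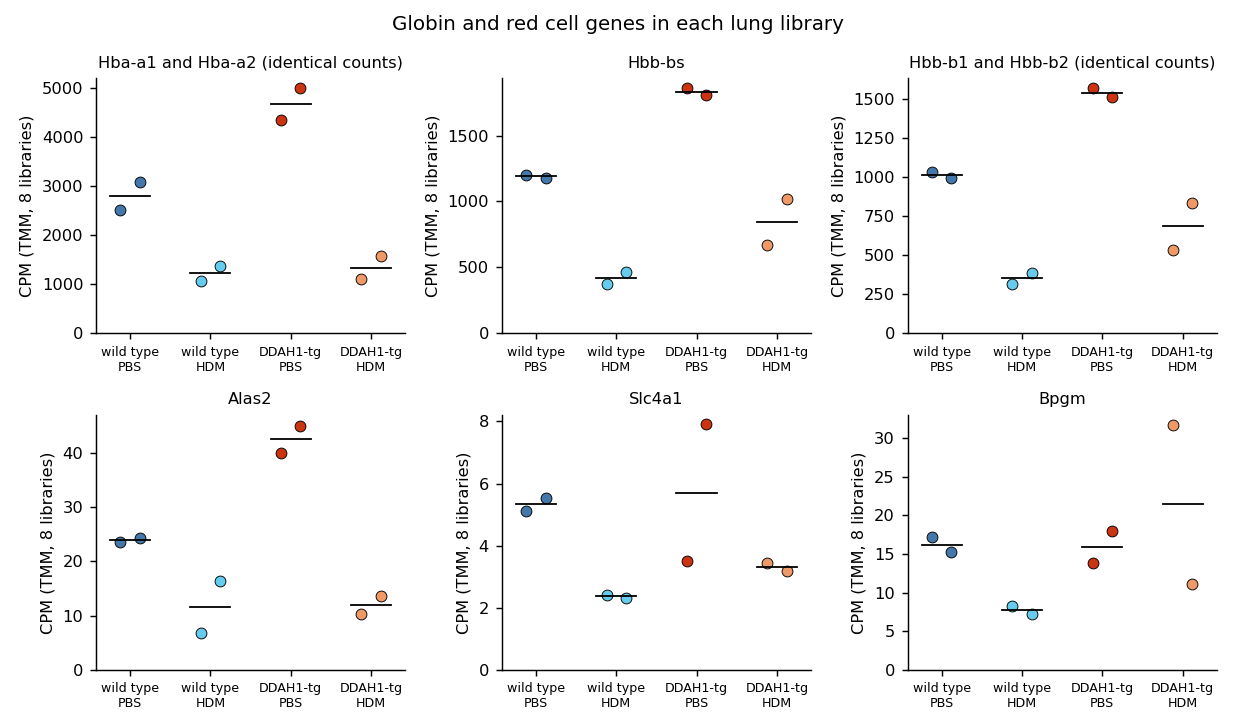
Each panel plots 1 distinct set of counts as CPM on a linear axis from 0, scaled by TMM over all 8 libraries, with a point for each library and a bar for the mean of the 2 libraries. Globins and Alas2 were highest in PBS-treated TG mice, at 4341 and 4993 CPM for Hba-a1, whereas Bpgm was highest in 1 library of HDM-treated TG mice, at 31.7 CPM.

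Between the PBS-treated groups, whose difference chose the members, the log2 fold change of TG over WT mice was 0.73 (standard error 0.092) for Hba-a1 and Hba-a2, 0.61 (0.089) for Hbb-bs and 0.59 (0.093) for Hbb-b1 and Hbb-b2. It was 0.82 (0.28) for Alas2, 0.082 (0.64) for Slc4a1 and -0.040 (0.38) for Bpgm. Over all 14926 genes tested, 0.281% passed an adjusted p-value of 0.05 as higher and 0.375% as lower, and the median change was 0.00068. The globin changes lay within 1 standard error of that of Alas2, and the standard error of Slc4a1 was too wide to place it with or apart from them. Without replicate 2 of PBS-treated TG mice, the change of Slc4a1 was -0.61.

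The same pair of groups differed in genes of other cell types, whose part in the globin difference was not tested. Of 8 skeletal muscle genes, 6 passed the threshold as higher in the TG libraries, and their summed level was 253 to 277 CPM against 42.3 to 46.4 CPM. Of 7 neutrophil genes tested, 4 passed as lower, with a sum of 29.4 to 30.9 CPM against 178 to 186 CPM and Camp at 0 in both transgenic libraries. Of 6 thymocyte genes, 2 passed as lower, with a sum of 14.1 to 17.8 CPM against 68.3 to 68.7 CPM and Dntt at 0 in both transgenic libraries. The alveolar type 2 list summed to 20162 to 25066 CPM against 17218 to 17770 CPM. All 8 of its genes were at positive changes without overlap, and 1, Sftpa1, passed as higher. Of all genes tested between these groups, the libraries did not overlap for 40.3%, while 0.281% passed as higher and 0.375% as lower. The endothelial list summed to 2190 to 2210 CPM against 1822 to 1843 CPM, with all 6 genes at positive changes, of which 0 passed with edgeR or DESeq2 and 2 had an unadjusted p-value under 0.05. The platelet list, another marker of blood, summed to 126 to 149 CPM against 115 to 135 CPM, and 0 of its 8 tested genes passed the threshold with edgeR's quasi-likelihood test, 0 had an unadjusted p-value under 0.05 and 0 passed with DESeq2.

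Both genotypes had lower globin counts after HDM than after PBS. In WT mice the log2 fold change was -1.20 (standard error 0.12) for Hba-a1, -1.51 (0.12) for Hbb-bs, -1.05 (0.43) for Alas2, -1.17 (0.73) for Slc4a1 and -1.07 (0.43) for Bpgm. In TG mice it was -1.79 (0.17) for Hba-a1, -1.10 (0.19) for Hbb-bs, -1.80 (0.35) for Alas2 and -0.76 (0.79) for Slc4a1, but 0.46 (0.50) for Bpgm. These comparisons share libraries with the one that chose the members, and they carry no test here. Genes with a transcript under 1000 bases had a median change after HDM of 0.29 in WT mice and 1.00 in TG mice. Over all genes the medians were 0.019 and 0.031. Hba-a1, Hba-a2 and Hbb-bs have such short transcripts, whereas Alas2, Slc4a1 and Bpgm do not, and no offset for length was fitted in these comparisons. All 5 distinct sets of counts other than Bpgm had negative fold changes after HDM in both genotypes. The platelet chemokine gene Ppbp went from 101 and 77.5 CPM to 22.2 and 19.3 CPM in WT mice. In TG mice it went from 89.6 and 123 CPM to 14.1 and 16.7 CPM. Not all platelet genes did so, since Pf4, a further platelet chemokine, stood at 7.84 and 10.3 CPM, 11.8 and 10.9 CPM, 8.58 and 5.07 CPM, and 8.39 and 18.9 CPM in the groups in the order used above. Pf4 had log2 fold changes after HDM of 0.32 in WT mice and 1.02 in TG mice, and Clec1b, a platelet receptor, of 0.34 and 0.48. The whole list summed to 115 to 149 CPM after PBS and to 32.5 to 49.0 CPM after HDM. Ppbp alone made up 77.5 to 123 CPM of the sum after PBS, so that the sum mostly follows this gene. None of these differences after HDM, in globins, other red cell genes or platelet genes, can be told apart from that of the sex markers. Alas2 also lies on the X chromosome.

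Between the HDM-treated groups, the comparison whose libraries did not choose the members, beta-globin was higher in TG mice and alpha-globin did not pass the test. Hbb-bs rose by 1.05 on the log2 scale (standard error 0.21, adjusted p = 0.0240 with edgeR's quasi-likelihood test and Benjamini-Hochberg adjustment over 15191 genes). Hbb-b1 and Hbb-b2 rose by 0.99 (0.22, adjusted p = 0.0372 in the same edgeR test). The change of Hba-a1 and Hba-a2 was 0.16 (0.19, adjusted p = 0.731), that of Alas2 0.090 (0.54, adjusted p = 0.960), that of Slc4a1 0.52 (0.96, adjusted p = 0.843) and that of Bpgm 1.51 (0.54, adjusted p = 0.190). Of the 8 members, 3 passed the threshold as higher, which are 2 distinct sets of counts of the 1 measure of beta-globin. Of all genes tested, 1.84% passed as higher (2.44% in either direction, 0.599% as lower), as did 12.8% of those with a transcript under 1000 bases. The 2 groups did not overlap for 5 of the 8 members and for 48.0% of all genes tested.

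The beta-globin calls were lost without either library of HDM-treated WT mice and with an offset for transcript length. Without replicate 1 of HDM-treated WT mice, the log2 fold change of Hbb-bs was 0.88 (adjusted p = 0.411), and without replicate 2 it was 1.22 (adjusted p = 0.207). Such fits leave 1 library in a group, which is assumed to vary like the 2 of the other group. That of Hbb-b1 was 0.83 (adjusted p = 0.458) and 1.15 (adjusted p = 0.261) without the same libraries. Without replicate 2 of HDM-treated TG mice, Bpgm was at 2.09 (adjusted p = 0.00342), where the only library left in the group was the one at 31.7 CPM, and without replicate 1 its change was 0.55 (adjusted p = 0.847). In this comparison, too, short transcripts were higher as a class. The median change of the 934 tested genes with a transcript under 1000 bases was 0.70 and 12.8% of them passed as higher, against a median of 0.010 over all genes. The globin transcripts, of 554 to 699 bases, are among the short ones.

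With an offset for transcript length, fitted in each library, the change of Hbb-bs was 0.33 (standard error 0.16, adjusted p = 0.377). Those of Hba-a1 and Hba-a2 turned to -0.51 (0.14, adjusted p = 0.129) and -0.60 (0.13, adjusted p = 0.0700), and that of Alas2 to -0.071 (0.53, adjusted p = 0.972). Hbb-b1 and Hbb-b2 had no transcript in the annotation and could not be fitted with this offset. The change of Bpgm, whose transcript has 2220 bases, was 1.43 with the offset. With an offset for GC content, Hbb-bs remained at 0.97 (adjusted p = 0.0171).

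**Figure D2:**
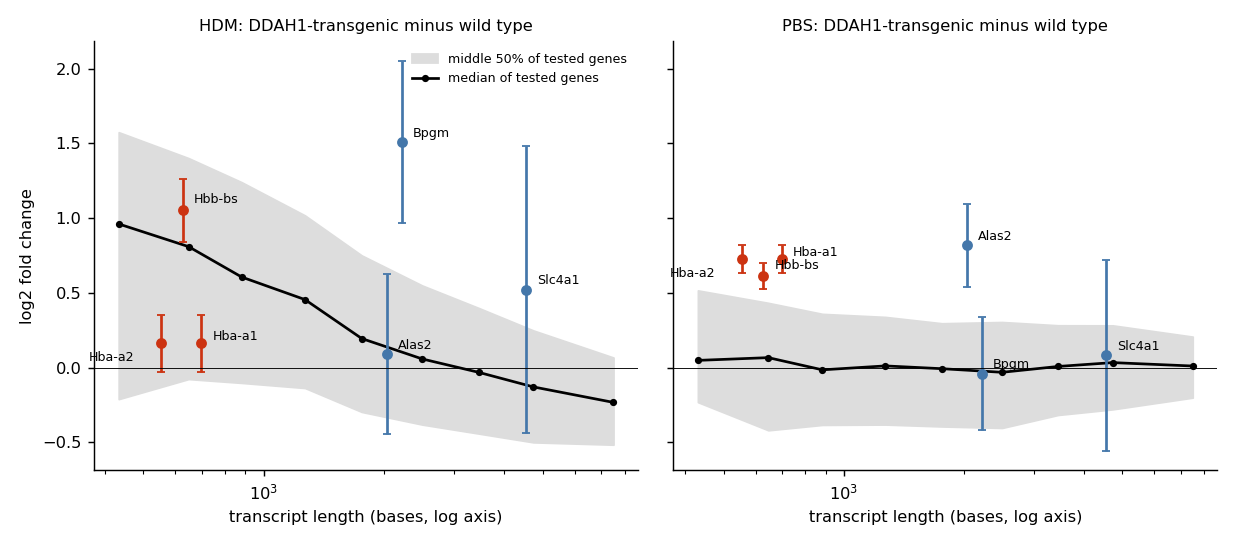
The log2 fold change of TG over WT mice is plotted against transcript length on a log axis, after HDM on the left and after PBS on the right, with the median and the middle 50% of all tested genes in bins of length and the members with their standard errors. After HDM the median of all genes fell from 0.96 in the shortest bin to -0.23 in the longest, with Hbb-bs near the median of its bin and Hba-a1 below it, whereas after PBS the medians stayed near 0 and the globins lay above them.

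**Figure D3:**
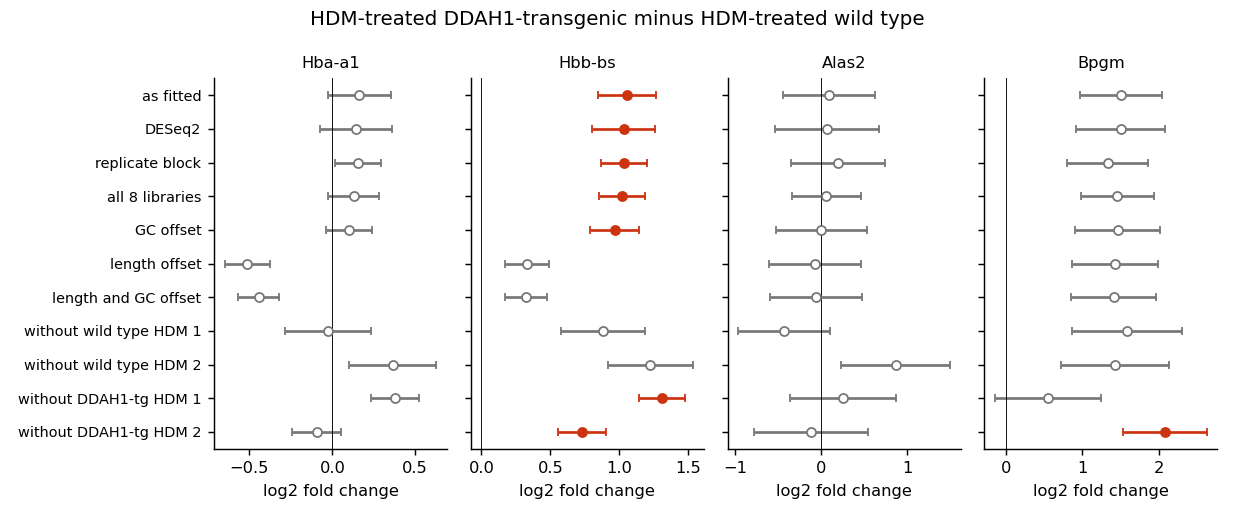
Points show the log2 fold change of HDM-treated TG over HDM-treated WT mice with its standard error under 11 settings, filled and red where the adjusted p-value was under 0.05 and open where it was not. Hbb-bs ranged from 0.32 to 1.31 and Hba-a1 from -0.51 to 0.38 over these settings.

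The ratio of alpha-globin to beta-globin within a library needs no scaling and compares transcripts of similar length. Hba-a1 over Hbb-bs was 2.10 and 2.61 in PBS-treated WT mice, 2.87 and 2.97 in HDM-treated WT mice, 2.34 and 2.77 in PBS-treated TG mice, and 1.65 and 1.53 in HDM-treated TG mice. The HDM-treated TG libraries were below the other 6, and those of HDM-treated WT mice were the highest. The log2 difference between the HDM-treated groups was -0.88, and it was -0.84 with the offset for transcript length and -0.77 with that for length and GC content. Between the PBS-treated groups it was 0.12, within the spread of the libraries. An exact permutation test of 2 against 2 libraries cannot reach the threshold, and none was run.

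The group means of alpha-globin over Alas2 were close to each other, and those of beta-globin over Alas2 were farther apart. Hba-a1 over Alas2 was 107 and 126 in PBS-treated WT mice, 157 and 84.0 in HDM-treated WT mice, 108 and 111 in PBS-treated TG mice, and 107 and 115 in HDM-treated TG mice. The group means of 117, 121, 110 and 111 differed by less than the spread of the libraries, whereas the CPM of Hba-a1 itself ranged from 1067 to 4993. Hbb-bs over Alas2 was 50.9 and 48.4, 54.8 and 28.3, 46.5 and 40.0, and 64.8 and 74.9 in the groups in that order, highest in HDM-treated TG mice. The log2 difference of this ratio between the HDM-treated groups was 0.82, with 1 of the WT libraries, at 28.3, apart from the other. Against Bpgm in place of Alas2 it was -0.29, so that its sign depends on the gene chosen. For Hba-a1 the log2 difference between the HDM-treated groups was -0.053 over Alas2, -0.37 over Slc4a1 and -1.17 over Bpgm. Between the PBS-treated groups it was -0.086, 0.76 and 0.78 over the same genes. The Alas2 transcript has 2037 bases and that of Hba-a1 699, so that these ratios do not compare transcripts of similar length.

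**Figure D4:**
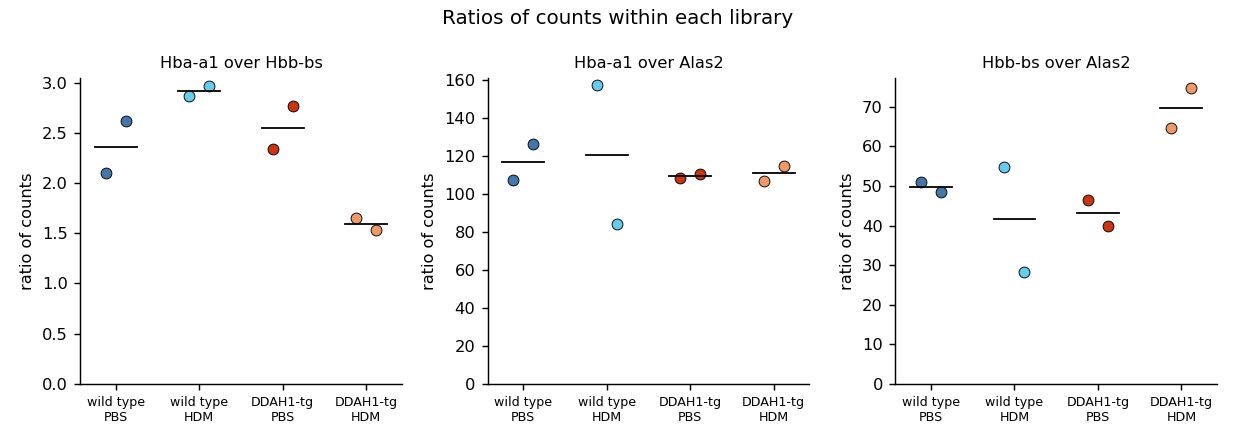
Ratios of counts within each library are plotted on linear axes from 0, with a point for each library and a bar for the group mean. Hba-a1 over Hbb-bs was 1.53 and 1.65 in HDM-treated TG mice and at least 2.10 elsewhere, and Hba-a1 over Alas2 stayed between 84.0 and 157.

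The other globins were almost not detected. Hba-x and Hbb-y, the embryonic globins, and Hbb-bh2 had 0 counts in all 8 libraries. Hbb-bh1, Hbq1a and Hbq1b had at most 3 counts in any library. Of the globins outside red cells, Cygb, which is found in fibroblasts, stood at 30.6 and 32.1 CPM in HDM-treated WT mice. In HDM-treated TG mice it stood at 15.7 and 8.90 CPM (log2 fold change -1.32, adjusted p = 0.132 with edgeR). The myoglobin gene Mb stood between 3.59 and 7.92 CPM in all libraries. Of these 2 genes, 0 passed the threshold with edgeR between the HDM-treated groups. Cygb had an unadjusted p-value under 0.05 in that test, and 1 of the 2 genes passed with DESeq2.

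Lists of other red cell genes held 60 genes, of which 59 had an entry and 37 were tested between the HDM-treated groups. Of these, 0 passed the threshold with edgeR's quasi-likelihood test, 4 had an unadjusted p-value under 0.05 and 1 passed with DESeq2, and their median log2 fold change was 0.058 against 0.010 over all genes. Between the PBS-treated groups 38 were tested, of which 0 passed, 7 had an unadjusted p-value under 0.05 and 2 passed with DESeq2, with a median of -0.15. Of all genes tested with edgeR, 2.44% passed in either direction after HDM and 0.657% after PBS. With DESeq2, 922 of 10773 genes passed after HDM and 223 of 14926 after PBS. The share of all genes with an unadjusted p-value under 0.05 is not given here, so those list counts have no background. The one gene called by DESeq2 after HDM was Tmod1, which makes a cap of the actin filaments under the membrane. It stood at 217 and 230 CPM in HDM-treated WT mice and 131 and 152 CPM in HDM-treated TG mice (log2 fold change -0.63, adjusted p = 0.130 with edgeR).

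Many genes on these lists are also expressed by cells other than red cells, and the most abundant ones had high counts in every group. Epb41, which makes protein 4.1 of the membrane skeleton, stood at 146 and 160 CPM in PBS-treated WT mice, 85.8 and 84.9 in HDM-treated WT mice, 182 and 191 in PBS-treated TG mice, and 87.5 and 94.6 in HDM-treated TG mice. Cat, which makes catalase, stood at 487 and 502, 309 and 307, 658 and 640, and 305 and 285 CPM in the groups in that order. Both had the order of alpha-globin between the PBS-treated groups and lay lower after HDM. Bnip3l, which clears mitochondria from reticulocytes, ranged from 186 to 356 CPM. Alas1, the heme synthesis enzyme of other cells, ranged from 105 to 170 CPM. Prdx2, an abundant peroxidase of red cells, stood at 33.8 and 36.4 CPM in HDM-treated TG mice and at 22.4 CPM or less in the other libraries (log2 fold change over HDM-treated WT mice 0.91, adjusted p = 0.217).

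Among genes more restricted to red cells and their precursors, Car1, a carbonic anhydrase of red cells, had 0 counts in all libraries. Gata1, the regulator of erythroid genes, had counts in 2 of the 8 libraries. Klf1, a regulator of beta-globin, stood at 8.03 CPM in replicate 2 of PBS-treated TG mice and at 0.30 CPM or less elsewhere. Tal1 stood at 48.3 CPM in the same library and at 10.8 CPM or less in the others. The globins of that library were close to those of its partner, at 1804 against 1859 CPM for Hbb-bs. Car1, Gata1 and Klf1 were chosen for naming after their values had been seen.

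**Figure D5:**
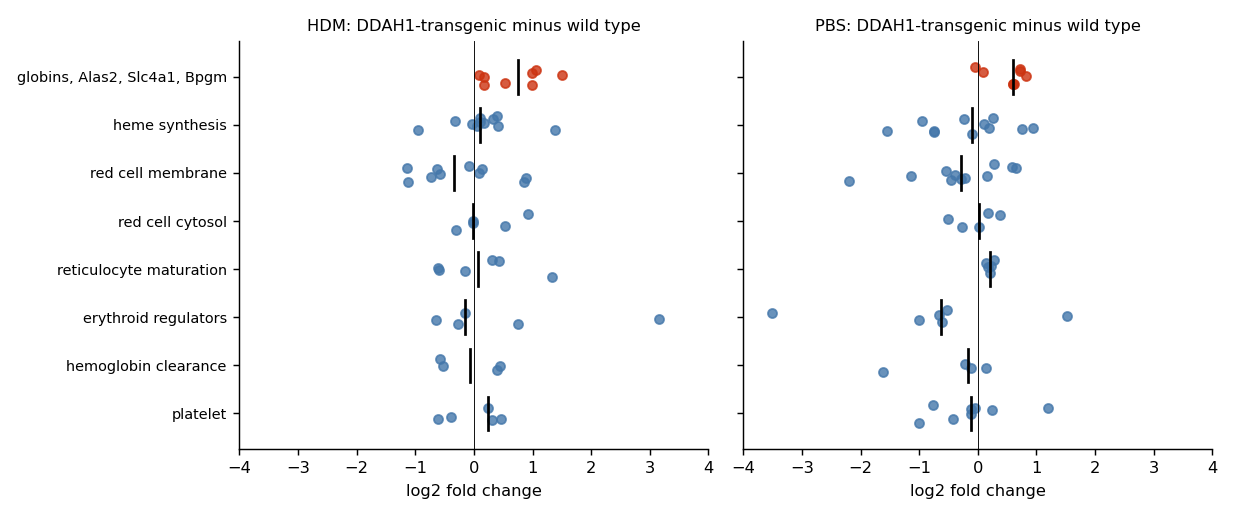
Each point is the log2 fold change of a tested gene of TG over WT mice, after HDM on the left and after PBS on the right, by list, and black bars are list medians. The 8 members, globins and red cell genes together, had medians of 0.76 and 0.60, and no gene of the 5 red cell lists shown passed the threshold with edgeR's quasi-likelihood test in either comparison.

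Genes that handle free hemoglobin were measured beside the globins. Hmox1, the heme oxygenase that opens the heme ring, stood at 35.1 and 61.5 CPM in PBS-treated WT mice. After HDM, WT mice had 45.0 and 43.5 CPM. TG mice had 12.4 and 19.4 CPM after PBS and 72.8 and 40.9 CPM after HDM. In PBS-treated TG mice Hmox1 was lower than in PBS-treated WT mice by 1.61 on the log2 scale (standard error 0.34, adjusted p = 0.0259 with edgeR's quasi-likelihood test). It was the 1 of 4 tested genes of this list that passed there, while 0.375% of all genes passed as lower. A link to the globin level was not tested. Hp, which makes haptoglobin, stood between 194 and 221 CPM after PBS and between 101 and 148 CPM after HDM. Of the 4 tested genes of this list, 0 passed the threshold between the HDM-treated groups with edgeR, 1 had an unadjusted p-value under 0.05 and 1, Lrp1, passed with DESeq2.

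The summed levels of other cell markers are given beside the HDM comparison, and their part in the beta-globin difference was not tested. The skeletal muscle list summed to 123 to 146 CPM in TG mice against 214 to 219 CPM in WT mice, with 0 of 8 genes past the threshold in edgeR, 3 at an unadjusted p-value under 0.05 and 1 past it in DESeq2. The endothelial list summed to 874 to 1102 CPM against 1320 to 1356 CPM, with 0 of 6 past the threshold in edgeR, 2 at an unadjusted p-value under 0.05 and 1 past it in DESeq2. The neutrophil list summed to 76.8 to 135 CPM against 61.1 to 72.2 CPM, with 0 of 5 past the threshold in either tool and 2 at an unadjusted p-value under 0.05. The platelet list summed to 32.5 to 46.2 CPM against 46.7 to 49.0 CPM, with 0 of 5 past the threshold in either tool and none at an unadjusted p-value under 0.05. Of 8 alveolar type 2 genes, 1 passed the threshold in edgeR, 3 had an unadjusted p-value under 0.05 and 3 passed in DESeq2. The gene called by edgeR was Sftpd, which rose by 0.82 (standard error 0.17, adjusted p = 0.0281), while Sftpc was at 0.64 (adjusted p = 0.0826) and Sftpb at -0.65 (adjusted p = 0.0890), and the list summed to 15216 to 20419 CPM against 14755 to 16351 CPM.

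Over the 8 libraries, the genes most like Hba-a1 in log2 CPM outside the members were Tfdp2, Ogn, Epb41, Col4a3 and Epn2, with Pearson correlations from 0.980 to 0.986 among 9551 genes of at least 10 CPM. Alas2 correlated at 0.964, Hbb-bs at 0.912, Slc4a1, which is under that level, at 0.774, and Bpgm at 0.224. The points share 4 pools and the treatment split, so that any gene lower after HDM scores high. None of the 5 genes was among the 5 highest by Spearman correlation. For Hbb-bs the highest genes were Prdx6, Hey1, Fxyd1, Inmt and Sec14l3, at 0.966 to 0.974, and Hba-a1 stood in place 69.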

How the data were processed

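Lung RNA of 4 pools of 4 mice was sequenced as 2 libraries each, and the 8 libraries were grouped by their titles. The authors aligned 50-cycle single reads to mm10 with TopHat and deposited raw counts for 23469 genes, described as reads in the coding region. The aligner version and gene annotation are not given in the sources used here. Identifiers were named from RefSeq GRCm38.p6 (23372 matched), and transcript lengths and sequences came from GENCODE M21 (21145 matched).

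Each comparison was fitted on its own 4 libraries with edgeR 4.0.16 (R 4.3.3), using TMM, filterByExpr with a count minimum of 10, the quasi-likelihood test and Benjamini-Hochberg adjustment over all genes tested, with a threshold of 0.05. Standard errors are the log2 fold change divided by the square root of F. CPM use TMM over 8 libraries, and log2 CPM for correlations a prior count of 2. Between partner libraries the mean chi-square per gene was 14.3 to 31.8, so that none was a repeat deposit within counting noise. The fits were tested on simulated data.

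The members and gene lists were chosen with earlier results of these data known. Named genes are the members, the 3 most abundant of each list at most, list genes past the threshold after HDM, the 5 genes most like Hba-a1, Ddah1, Xist and Ddx3y. Cpox, Klf1, Car1, Gata1, Camp, Dntt, Sftpb, part of the other globins and the genes most like Hbb-bs were named after their values were seen. The results of some list genes are not reported here. Alternatives were RLE size factors, DESeq2 1.42.0, no filter, a replicate block, library sizes without Rn45S and hemoglobin genes, 1 gene per identical set, all 8 libraries, a length offset (loess, span 0.5) and single libraries left out. The GC offsets and Hbb-b1 as the beta-globin gene were added after seeing the data.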

Additional observations from a re-analysis of the deposited data

How the results depend on the processing

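The 3 beta-globin calls after HDM held with RLE size factors, DESeq2, no filter, the replicate block, other library sizes and all 8 libraries. The members called as higher came to 0 with the offset for length, 0 with length and GC content, 1 with GC content and 0 to 4 with a library left out, the highest including Bpgm. With a library left out, the lone one of its group is assumed to vary like the other group. Hbb-b1 and Hbb-b2 have no transcript and drop out of every offset fit. The offsets for length, for length with the block, and for length and GC content turned Hba-a1 to -0.51, -0.51 and -0.44, Hba-a2 to -0.60, -0.60 and -0.54, and, in the first and last, Alas2 to -0.071 and -0.059. Leaving out a library gave -0.10 to 0.38 for Hba-a1 and Hba-a2 and -0.43 to 0.86 for Alas2. The cause was not tested.

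All genes called after HDM, 370 (279 higher, 91 lower), came to 922 with DESeq2, 1055 without a filter, 771 in all 8 libraries, 156 with the length offset (79 higher), 199 with length and GC content (109 higher), and 6 to 1595 with a library left out, lowest without replicate 1 of HDM-treated wild type mice and highest without replicate 2 of HDM-treated DDAH1-transgenic mice. After PBS, 98 came to 223 with DESeq2, 306 without a filter and 75 to 432 with a library left out, highest without replicate 1 of PBS-treated DDAH1-transgenic mice. Of the red cell list genes, 1 was lower after HDM with DESeq2 and in all 8 libraries (Tmod1), and 0 to 1 with a library left out. After PBS, 2 were higher with DESeq2 (Cat and Cpox), 2 without a filter (Klf1 and Tal1), 1 with the length offset, 1 with length and GC content (Cat in both), and 0 to 3 higher and 0 to 1 lower with a library left out.

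The replicate number did not pair the samples, since same-numbered libraries deviated together with correlations of -0.021 to 0.032. With the replicate block, 625 genes were called after HDM and 45 after PBS, and with block and length offset 558 were called after HDM, including Hba-a1 and Hba-a2 as 2 lower members (adjusted p = 0.0141 and 0.00193) and 0 higher ones, and 1 red cell list gene was higher after PBS.

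The log2 difference of Hba-a1 over the red cell gene moved after HDM from -0.053 to -0.37 with Slc4a1, -1.17 with Bpgm and -0.63 with the sum of Alas2, Slc4a1 and Bpgm, and after PBS from -0.086 to 0.76 with Slc4a1, 0.78 with Bpgm and 0.25 with the sum. That of Hbb-bs moved after HDM from 0.82 to 0.51, -0.29 and 0.25 with Slc4a1, Bpgm and the sum, and after PBS from -0.20 to 0.64, 0.66 and 0.14 with Slc4a1, Bpgm and the sum. Hba-a1 over Hbb-bs after HDM moved from -0.88 to -0.81 with Hbb-b1 and -0.77 with length and GC content. By Spearman correlation, 0 of the 5 genes most like Hba-a1 were shared. Low counts of Slc4a1 (23 to 75 per library) and Bpgm limit every ratio to them.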

Other observations

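Cpox, an enzyme of heme synthesis, stood at 31.3 and 22.1 CPM in HDM-treated DDAH1-transgenic mice and at 69.4 and 36.5 CPM in HDM-treated wild type mice. Its log2 fold change of -0.95 did not pass the threshold (adjusted p = 0.221 with edgeR's quasi-likelihood test).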
